A study of Homo sapiens with 24 samples.

Results

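The genes described here are the nuclear genes of the respiratory chain: subunits and assembly factors of complexes I to IV and the subunits of ATP synthase. They were taken by symbol, as genes named NDUF, SDH, UQCR, COX5 to COX8 with a subunit letter, or ATP5F1, ATP5M and ATP5P, that reached 1 CPM (a read count scaled to a common library total) in at least 3 libraries. Of 60605 genes in the count files, 147 symbols had such a name and 88 reached this level. The 88 members were 7 core subunits, 29 accessory subunits and 8 assembly factors of complex I, 4 subunits and 4 assembly factors of complex II, 8 subunits of complex III, 10 of complex IV, 17 of ATP synthase and 1 processed pseudogene, ATP5PBP1. NDUFA4 was placed with complex IV, to which it is now assigned. Of the 59 symbols below the level, 52 were pseudogenes. The other 7 were COX6A2, COX6B2, COX7A1, COX7B2, COX8C, ATP5MGL and NDUFA7. NDUFA7 lay just outside, with a third-highest value of 0.917 CPM, while ATP5PBP1 (1.01 CPM) and NDUFA13 (1.5 CPM) lay just inside. All 88 members passed the filter on low counts of the statistical fit.

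The respiratory chain sits in the inner mitochondrial membrane. Complexes I and II take electrons from NADH and succinate, complex III passes them to cytochrome c and complex IV to oxygen, and ATP synthase uses the resulting proton gradient to make ATP. A small set of hydrophobic subunits is encoded by mitochondrial DNA, and all other subunits, the assembly factors and the whole of complex II come from nuclear genes. Many of these nuclear genes carry promoter motifs for NRF1, for ETS factors such as GABP, and for YY1.

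The cells were SBC-3, an established line from a human small cell lung tumour, labelled as wild type. Their poly(A) RNA was sequenced 72 h after reverse transfection with 10 nM of either an siRNA (a short duplex that degrades its target RNA) or an antisense oligonucleotide (ASO). The siRNA arm held the control siCtrl, the SFPQ siRNAs siSFPQ-2 and siSFPQ-3 and the NONO siRNAs siNONO-3 and siNONO-4. The ASO arm held the control ASO-Ctrl and the NEAT1 oligonucleotides ASO-NEAT1-1047 and ASO-NEAT1-1473. SFPQ and NONO are RNA-binding proteins of paraspeckles, nuclear bodies built on the noncoding RNA NEAT1. Each of the 8 groups had 3 libraries, and no label says whether these came from separate cultures. The p-values therefore reflect library-to-library spread, which may be technical.

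SFPQ RNA stood at 1223 ± 40.2 CPM (SD, n = 3) in siCtrl, 207.6 ± 47.3 with siSFPQ-2 and 222.5 ± 27.3 with siSFPQ-3, and NONO RNA at 399.1 ± 14.9, 69.23 ± 9.3 with siNONO-3 and 70.07 ± 5.06 with siNONO-4. NONO RNA stood at 539.4 ± 29.1 CPM with siSFPQ-2 and 609 ± 21.7 with siSFPQ-3. SFPQ RNA stood at 1493 ± 68.9 CPM with siNONO-3 and 1614 ± 47.9 with siNONO-4. NEAT1 RNA stood at 309.3 ± 106 CPM in siCtrl, 643.5 ± 161 with siSFPQ-2 and 650.8 ± 129 with siSFPQ-3. It stood at 282 ± 13.3 CPM with siNONO-3 and 372.4 ± 22.3 with siNONO-4. In the ASO arm, the level of NEAT1 was 297.2 ± 85.8 CPM for ASO-Ctrl. It was 297.4 ± 47 CPM for the 1047 oligonucleotide and 205.9 ± 25.4 CPM for 1473. These ranges overlapped and no fall of NEAT1 was called, so these groups are named as the libraries labelled ASO-NEAT1. Among small cell lung cancer markers, SYP (17.2 CPM), ENO2 (26.7 CPM), NEUROD1 (4.62 CPM) and DLL3 (1.38 CPM) were measured above 1 CPM in siCtrl, while INSM1, NCAM1, CHGA, UCHL1 and POU2F3 stood at 0.148 CPM or less. Of 12 markers of leukocytes, endothelium, fibroblasts and erythroid cells, COL1A1 reached 13.5 CPM in siCtrl and the others 0.415 CPM or less. The epithelial marker KRT8 moved with SFPQ knockdown, from a mean of 108 CPM in siCtrl to 418 and 421, as did SYP, to 65.9 and 37.4. NEUROD1 went the other way, to 2.4 and 1.36 CPM, as did DLL3, to 0.356 and 0.401. Their part in the results was not tested. Total counts ran from 4243196 to 14886353 per library, and all 6 siSFPQ libraries also had a larger share of mitochondrially encoded reads (9.588% to 11.558%) than the siCtrl libraries (7.628% to 9.066%). CPM are relative to the library total, so less of an RNA per cell and fewer cells that make it cannot be told apart.

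SFPQ knockdown lowered most of these genes. Comparing the mean of both siSFPQ groups with siCtrl, 71 of the 88 members fell, 5 rose and 12 were not called. One of the 5 is the pseudogene ATP5PBP1, which reached 1 CPM in siSFPQ libraries alone, so the level rule fixed its direction. Among the 87 protein-coding members 71 fell and 4 rose. A gene was called at an adjusted p under 0.05, by edgeR's quasi-likelihood test with Benjamini-Hochberg adjustment over all 15869 genes tested. Knockdown moved much of the transcriptome: 70.4% of all genes tested were called, 34.7% higher and 35.8% lower. Among the members 80.7% were called lower and 5.68% higher. The median log2 fold change of the members was -0.64, or 64.1% of the control level, against -0.02 for all genes tested and -0.04 for the other protein-coding genes. In 66 members every siSFPQ library lay below every siCtrl library, as it did for 28.1% of all genes, and in 4 every siSFPQ library lay above (28.4% of all genes). These medians and shares describe the members and carry no test of their own.

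**Figure D1:**
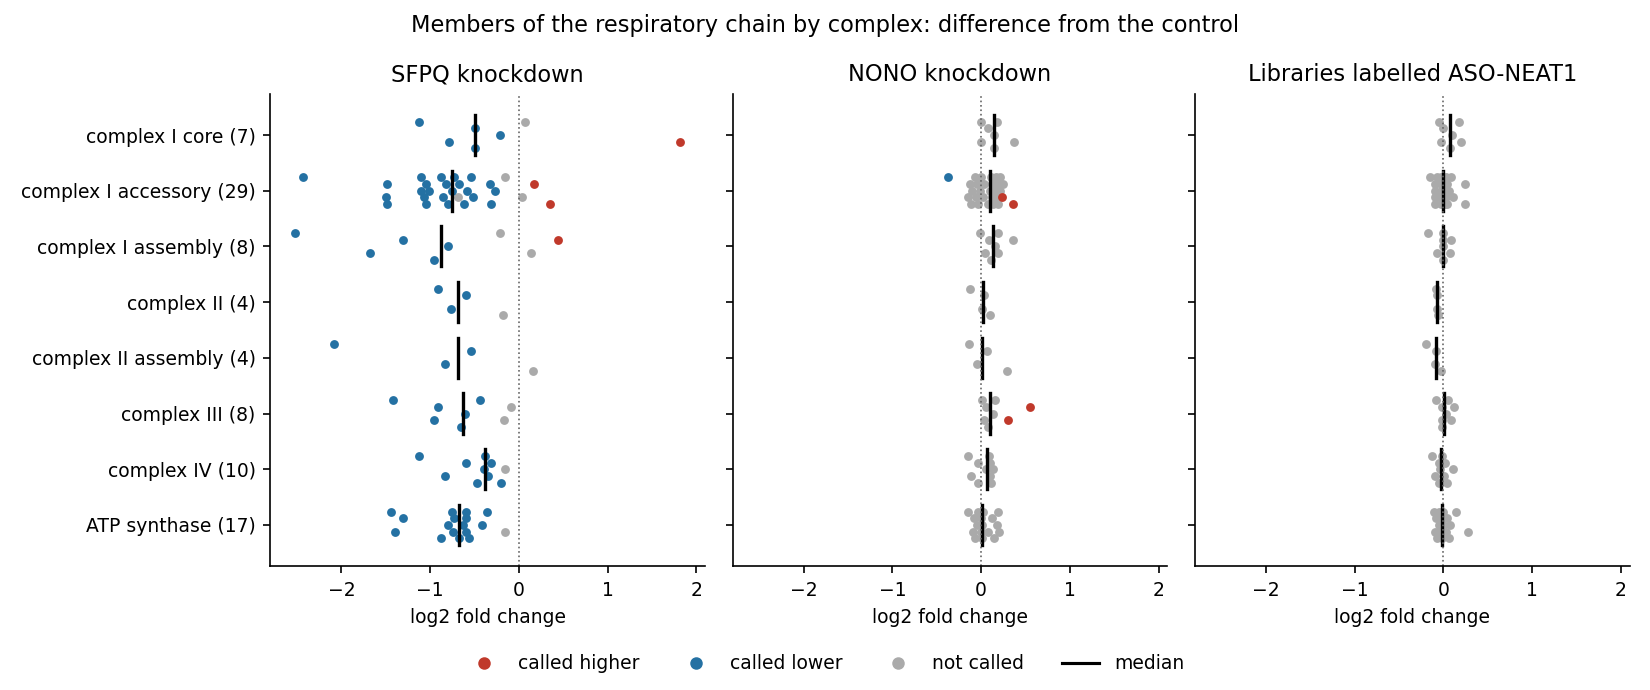
Log2 fold change of each protein-coding member (points, by complex, with the number of members in brackets) for both reagents against the control of their arm. The median is a black bar, and the pseudogene ATP5PBP1 is not drawn. After SFPQ knockdown most points lie left of 0 and 71 are called lower. After NONO knockdown 5 are called, and in the libraries labelled ASO-NEAT1 none.

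The upstream promoter stretches of 4 members, given as examples with a match, show the motifs that this gene class is known for. The stretches come from 3 genes that fell and from NDUFB4, which was not called. Each is the 150 bases before the gene start (RefSeq, GRCh38.p14), written 5′ to 3′ on the gene's own strand, with the motif matches in capitals. SDHD is on the plus strand at chr11:112086723-112086872, UQCRFS1 on the minus strand at chr19:29213152-29213301, UQCRQ on the plus strand at chr5:132866492-132866641 and NDUFB4 on the plus strand at chr3:120596186-120596335.
SDHD: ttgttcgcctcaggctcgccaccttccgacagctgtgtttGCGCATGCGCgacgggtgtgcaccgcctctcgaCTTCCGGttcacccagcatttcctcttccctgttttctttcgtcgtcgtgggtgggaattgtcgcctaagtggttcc
UQCRFS1: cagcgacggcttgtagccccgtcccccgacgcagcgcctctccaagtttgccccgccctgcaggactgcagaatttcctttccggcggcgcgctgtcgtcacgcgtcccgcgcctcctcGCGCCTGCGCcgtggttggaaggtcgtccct
UQCRQ: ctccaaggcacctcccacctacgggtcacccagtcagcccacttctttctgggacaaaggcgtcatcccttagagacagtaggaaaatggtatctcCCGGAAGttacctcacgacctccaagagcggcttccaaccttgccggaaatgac
NDUFB4: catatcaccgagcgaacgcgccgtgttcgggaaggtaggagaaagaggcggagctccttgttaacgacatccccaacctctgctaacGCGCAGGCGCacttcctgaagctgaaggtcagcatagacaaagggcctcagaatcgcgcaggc
In SDHD the first capitals mark the palindromic NRF1 motif and the second the ETS motif CCGGAAG read on the other strand. In UQCRQ they mark the ETS motif, and in UQCRFS1 and NDUFB4 the NRF1 motif with a base in its middle left free.

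These motifs were counted on both strands in RefSeq windows from 250 bases before to 50 bases after an annotated start. Each of the 73 members with a window was given a single one, the nearest to its gene start. For 52 members the distance was under 100 bases. The comparison took all 35116 windows, without a choice of a single window per gene or of expressed genes, so the sets were not chosen alike. The exact NRF1 motif was in 5 members (6.85%, against 1.24% of all windows), and the form with a free base, which includes it, in 19 (26.0% against 5.78%). The ETS motif CCGGAAG was in 23 members (31.5% against 10.3%) and the YY1 motif AAGATGGC in 11 (15.1% against 2.89%). Any of these motifs was in 42 of the 73 members (57.5% against 17.0%), and the stretches shown above are examples from these. Of the 63 members with a window that fell after SFPQ knockdown, 16 held the NRF1 motif with a free base, 19 the ETS motif and 11 the YY1 motif. Of the 10 that did not fall, 3, 4 and 0 held them. The exact NRF1 motif was in 3 of the 63 and in 2 of the 10. A match describes these letters and is not evidence of binding.

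Complex I core subunits, which carry the flavin and the iron-sulfur clusters, fell in 5 of 7, with a median log2 fold change of -0.49. NDUFS7, which holds the last iron-sulfur cluster before ubiquinone, stood at 8.94, 7.16 and 9.98 CPM in siCtrl, 5.37, 3.22 and 3.57 with siSFPQ-2 and 4.06, 3.19 and 4.46 with siSFPQ-3. All 6 knockdown libraries were below the control. NDUFS7 fell by 1.12 on the log2 scale (SE 0.17), with an adjusted p of 1.83e-06. NDUFV1, the subunit that binds NADH and flavin, stood at 56.1, 60.3 and 66.6 CPM in siCtrl, 46.7, 38.4 and 48.3 with siSFPQ-2 and 31.3, 26.6 and 25.2 with siSFPQ-3. It was lowest with siSFPQ-3 and fell by 0.79 on the log2 scale (SE 0.08). NDUFS1, NDUFS3 and NDUFS8 fell by 0.21, 0.49 and 0.49.

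NDUFV2, a core iron-sulfur subunit and the partner of NDUFV1, went the other way. It stood at 3.66, 5.01 and 6.05 CPM in siCtrl, 10.2, 14.6 and 21.3 with siSFPQ-2 and 15.6, 19.6 and 23.4 with siSFPQ-3. Every knockdown library lay above every control library, a rise of 1.82 (SE 0.23) with an adjusted p of 1.64e-07 that rests on 41 to 83 reads per siCtrl library and 59 to 203 per siSFPQ library. The deposited counts leave out reads on exons shared by genes of the same strand, and 28.4% of the exon length of NDUFV2 is shared with a transcript without a symbol, which itself had 0 CPM. The counted part is therefore not the whole gene. Its part in the rise was not tested.

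Accessory subunits of complex I, which surround the core, fell in 24 of 29 with a median of -0.75, and 2 rose. NDUFS4 (chromosome 5, 53560633 to 53683338, hg38), an accessory subunit of the NADH-oxidizing arm that is mutated in Leigh syndrome, stood at 40.1, 45.4 and 35.6 CPM in siCtrl. With siSFPQ-2 it stood at 10.9, 9.18 and 5.77 CPM and with siSFPQ-3 at 6.56, 6.63 and 6.63. The knockdown libraries held 18.5% of the control level, and NDUFS4 fell by 2.43 (SE 0.12), with an adjusted p of 5.26e-16. In the NONO and ASO groups NDUFS4 ranged from 32.6 to 43.9 CPM, overlapping the control.

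NDUFS6, a zinc-binding subunit of the same arm, stood at 38.4, 38.5 and 35.3 CPM in siCtrl, 13.6, 14.6 and 10.2 with siSFPQ-2 and 16.3, 12.8 and 12.9 with siSFPQ-3. The groups did not overlap and it fell by 1.5 (SE 0.11). NDUFA10 fell by 1.48 (SE 0.07), NDUFB6 by 1.48 (SE 0.09), and NDUFAB1, the mitochondrial acyl carrier protein, by 1.1 (SE 0.09). NDUFA12, NDUFS5, NDUFA3, NDUFB1 and NDUFA11 also fell, with log2 fold changes between -1.1 and -1.01. NDUFA11 rests on 21 to 44 reads per siCtrl library and 4 to 15 per siSFPQ library. The other 14 that fell ranged from -0.88 for NDUFB3 to -0.27 for NDUFC1. NDUFA9 (-0.31) lost its call without siCtrl replicate 1 (adjusted p = 0.0595) and with DESeq2, and NDUFC2 (-0.32) lost it without the same library (adjusted p = 0.0673).

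NDUFA5, an accessory subunit of the arm that carries ubiquinone chemistry, was the called rise with the most reads. It stood at 119, 107 and 95.3 CPM in siCtrl, 124, 136 and 145 with siSFPQ-2 and 135, 135 and 141 with siSFPQ-3. All 6 knockdown libraries were higher, by 0.35 (SE 0.08), with an adjusted p of 0.000391. NDUFB9 had a log2 fold change of 0.17 (adjusted p = 0.0457), a call that 12 of 16 alternatives did not make. NDUFB4 stood at 40.7, 40.7 and 39.8 CPM in siCtrl, 42.1, 42.7 and 43.2 with siSFPQ-2 and 41.0, 39.3 and 41.1 with siSFPQ-3. These groups overlapped and NDUFB4 was not called (95% interval -0.13 to 0.21), nor were NDUFB2 (-0.16) and NDUFA13 (-0.69, adjusted p = 0.0588), which rests on 4 to 16 reads per library in these groups.

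Assembly factors of complex I were lowered unevenly: 5 of 8 fell, 1 rose and 2 were not called. NDUFAF2 (chromosome 5, 60945177 to 61154531), a paralog of NDUFA12 that acts late in the assembly of the NADH-oxidizing arm, stood at 30.1, 33.7 and 28.2 CPM in siCtrl. It stood at 6.39, 7.69 and 4.2 CPM with siSFPQ-2 and 6.2, 3.44 and 5.06 with siSFPQ-3. This was the largest fall among the members, to 17.4% of the control, a drop of 2.52 (SE 0.13; log2 fold change -2.52) with an adjusted p of 1.97e-15. NDUFAF8 stood at 17.5, 15.3 and 14.0 CPM in siCtrl, 4.99, 8.93 and 4.93 with siSFPQ-2 and 4.89, 4.3 and 2.89 with siSFPQ-3, and fell by 1.68 (SE 0.16).

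NDUFAF5, an enzyme that modifies NDUFS7 and works with NDUFAF8, stood at 19.2, 17.2 and 16.8 CPM in siCtrl, 23.1, 23.8 and 24 with siSFPQ-2 and 26.5, 25.5 and 21.7 with siSFPQ-3. It was higher in all 6 knockdown libraries, by 0.44 (SE 0.11), with an adjusted p of 0.000634. These partners therefore moved in opposite directions. NDUFAF3, NDUFAF1 and NDUFAF6 fell by 1.31, 0.95 and 0.80. NDUFAF4, which works with NDUFAF3, was not called (-0.21, 95% interval -0.46 to 0.04), nor was NDUFAF7, a methyltransferase (0.14, 95% interval -0.03 to 0.31).

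**Figure D2:**
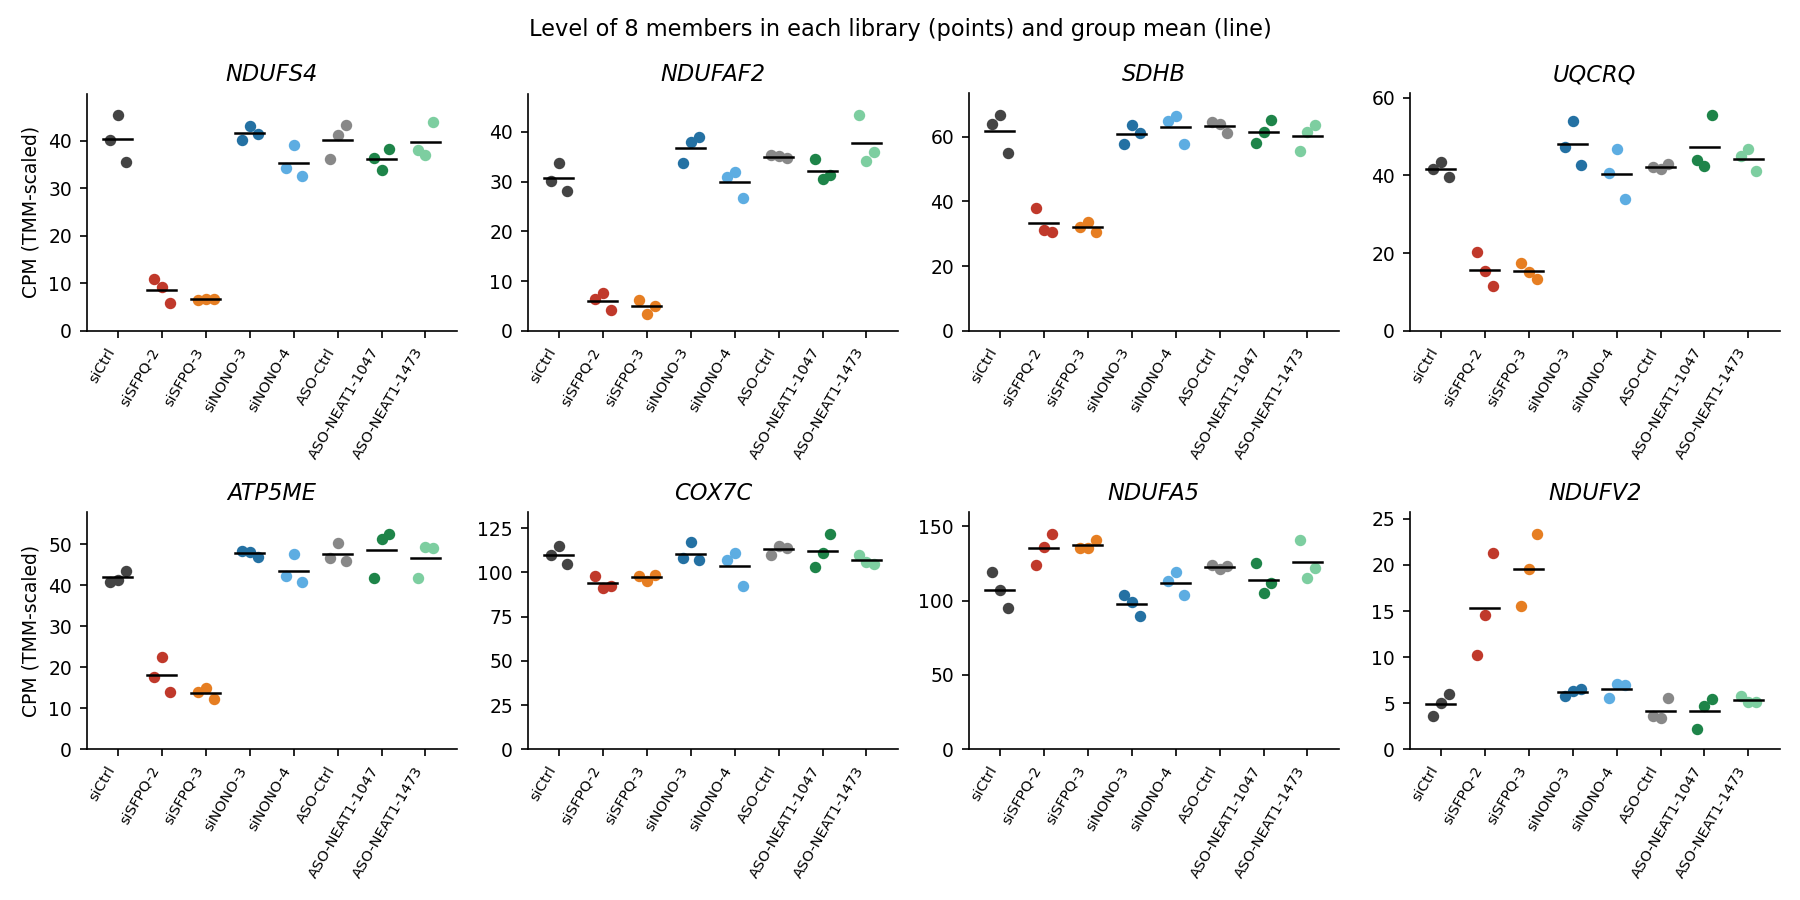
CPM of 8 members in each of the 24 libraries (points) with the group mean (line), on axes that start at 0. NDUFS4, NDUFAF2, SDHB, UQCRQ and ATP5ME lie lower in all 6 siSFPQ libraries than in all siCtrl libraries, COX7C lies slightly lower, and NDUFA5 and NDUFV2 lie higher.

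Complex II oxidizes succinate and links the chain to the citric acid cycle. SDHB, its iron-sulfur subunit, stood at 63.9, 66.7 and 54.9 CPM in siCtrl, 38.0, 31.2 and 30.6 with siSFPQ-2 and 32.0, 33.6 and 30.7 with siSFPQ-3. The groups did not overlap, and SDHB fell by 0.91 (SE 0.08, adjusted p = 7.74e-11). SDHD, a membrane anchor, stood at 103, 113 and 75.4 CPM in siCtrl and between 51.6 and 66.7 in the 6 siSFPQ libraries, and fell by 0.76 (SE 0.12). SDHA, the flavin subunit, fell by 0.60 (SE 0.15). The second anchor, SDHC, was not called (-0.18, adjusted p = 0.0584), although 7 of 16 alternatives called it.

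Of the complex II assembly factors, SDHAF3 (chromosome 7, 97117698 to 97181763), which helps to insert the iron-sulfur clusters of SDHB, fell furthest. It stood at 18.8, 21.0 and 17.7 CPM in siCtrl, 4.99, 4.22 and 4.3 with siSFPQ-2 and 4.89, 4.91 and 3.73 with siSFPQ-3. That is 23.7% of the control level: SDHAF3 fell by 2.08 (SE 0.11), with an adjusted p of 3.11e-15. SDHAF1, which acts on the same clusters, fell by 0.54 (SE 0.16), and SDHAF4 fell from 12.4, 11.8 and 12 CPM to between 4.46 and 9.18, by 0.83 (SE 0.14). SDHAF2, which attaches the flavin to SDHA, was at 1.97 to 2.45 CPM in siCtrl and 1.92 to 3.37 after knockdown, and was not called (0.16, 95% interval -0.37 to 0.70). Its exons are shared over 44.8% of their length with another gene of the same strand.

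Complex III fell in 6 of 8 subunits, with a median of -0.63. UQCRQ, a small subunit that contacts cytochrome b, stood at 41.6, 43.4 and 39.6 CPM in siCtrl, 20.2, 15.4 and 11.5 with siSFPQ-2 and 17.5, 15.1 and 13.4 with siSFPQ-3. The libraries separated by group, and UQCRQ fell by 1.42 (SE 0.13, adjusted p = 1.06e-10). UQCRFS1, the Rieske iron-sulfur protein, stood at 41.3, 48.0 and 43.2 CPM in siCtrl, 24, 28.5 and 20.4 with siSFPQ-2 and 23.0, 22.2 and 20.4 with siSFPQ-3, and fell by 0.95 (SE 0.10). UQCR10, the hinge protein UQCRH and the core proteins UQCRC2 and UQCRC1 fell by 0.91, 0.65, 0.61 and 0.44. UQCRB, at 300 to 315 CPM in siCtrl and 263 to 310 after knockdown, was not called (95% interval -0.22 to 0.04), nor was UQCR11 (-0.17, 95% interval -0.44 to 0.10).

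Complex IV had the smallest median of the complexes, -0.38, though 9 of its 10 members fell. COX8A, a small transmembrane subunit, stood at 16.0, 12.4 and 15.2 CPM in siCtrl, 7.03, 7.19 and 8.08 with siSFPQ-2 and 6.56, 4.3 and 6.87 with siSFPQ-3. It fell by 1.13 (SE 0.16, adjusted p = 3.48e-07), with 35.4% of its exon length shared on the same strand and so not counted. COX7B stood at 114, 97.3 and 87.6 CPM in siCtrl and between 49.3 and 66.2 after knockdown, and fell by 0.83 (SE 0.08). COX5B, COX5A, NDUFA4, COX6B1, COX6A1, COX7A2 and COX7C fell by 0.20 to 0.60. COX7C had the smallest of these falls and lost its call without siCtrl replicate 2 (adjusted p = 0.0575). COX6C was not called (-0.15, 95% interval -0.31 to 0.01).

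ATP synthase was lowered almost throughout: 16 of 17 subunits fell, with a median of -0.67. In the catalytic head, ATP5F1A and ATP5F1B, the alpha and beta subunits, fell by 0.63 (SE 0.06) and 0.42 (SE 0.07). In the central stalk, ATP5F1C and ATP5F1E fell by 0.60 (SE 0.06) and 0.88 (SE 0.06), while ATP5F1D was not called (-0.15, 95% interval -0.52 to 0.22), at 7.77 to 11.4 CPM in siCtrl and 5.95 to 10.6 after knockdown. The peripheral stalk moved as a block: ATP5PB, ATP5PD, ATP5PF and ATP5PO had log2 fold changes from -0.80 to -0.56.

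Among the membrane subunits of ATP synthase the falls ranged widely. ATP5ME, subunit e, which takes part in dimer formation, stood at 40.9, 41.4 and 43.4 CPM in siCtrl, 17.6, 22.6 and 14.1 with siSFPQ-2 and 14.0, 15 and 12.2 with siSFPQ-3. It fell by 1.44 (SE 0.10, adjusted p = 1.37e-12), to 37.0% of the control. ATP5MK, a small accessory subunit, stood at 82.0, 82.2 and 76.5 CPM in siCtrl, 31.1, 24.1 and 23.2 with siSFPQ-2 and 44.6, 37.1 and 38.2 with siSFPQ-3, and fell by 1.31 (SE 0.09). ATP5MF, ATP5MG and ATP5MJ fell by 0.73, 0.59 and 0.59.

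Subunit c, the ring that turns in the membrane, is encoded by 3 genes whose mature proteins are the same, and these fell by different amounts. ATP5MC1 stood at 20.8, 21.0 and 16.7 CPM in siCtrl and at 8.44, 9.18, 6.4, 9.9, 5.52 and 5.54 in the siSFPQ libraries, and it fell by 1.39 (SE 0.15), with an adjusted p of 4.12e-09. ATP5MC3 stood at 128, 131 and 121 CPM in siCtrl, 75.7, 68.9 and 61.2 with siSFPQ-2 and 88.2, 82.6 and 77.9 with siSFPQ-3, and fell by 0.75 (SE 0.08). ATP5MC2 stood at 91.6, 81.2 and 85.2 CPM in siCtrl, 68.7, 60.3 and 76.1 with siSFPQ-2 and 71.5, 55.4 and 70.2 with siSFPQ-3, and fell by 0.36 (SE 0.08). The 95% interval of ATP5MC1 (-1.70 to -1.09) lies below those of ATP5MC3 (-0.90 to -0.59) and ATP5MC2 (-0.52 to -0.19), but differences between the genes were not tested. Of the tissue-specific paralogs of complex IV, COX6A2, COX6B2, COX7A1, COX7B2 and COX8C had 1, 45, 5, 0 and 18 reads over all 24 libraries, while COX6A1, COX6B1, COX7A2, COX7B and COX8A took nearly all reads at these positions.

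**Figure D3:**
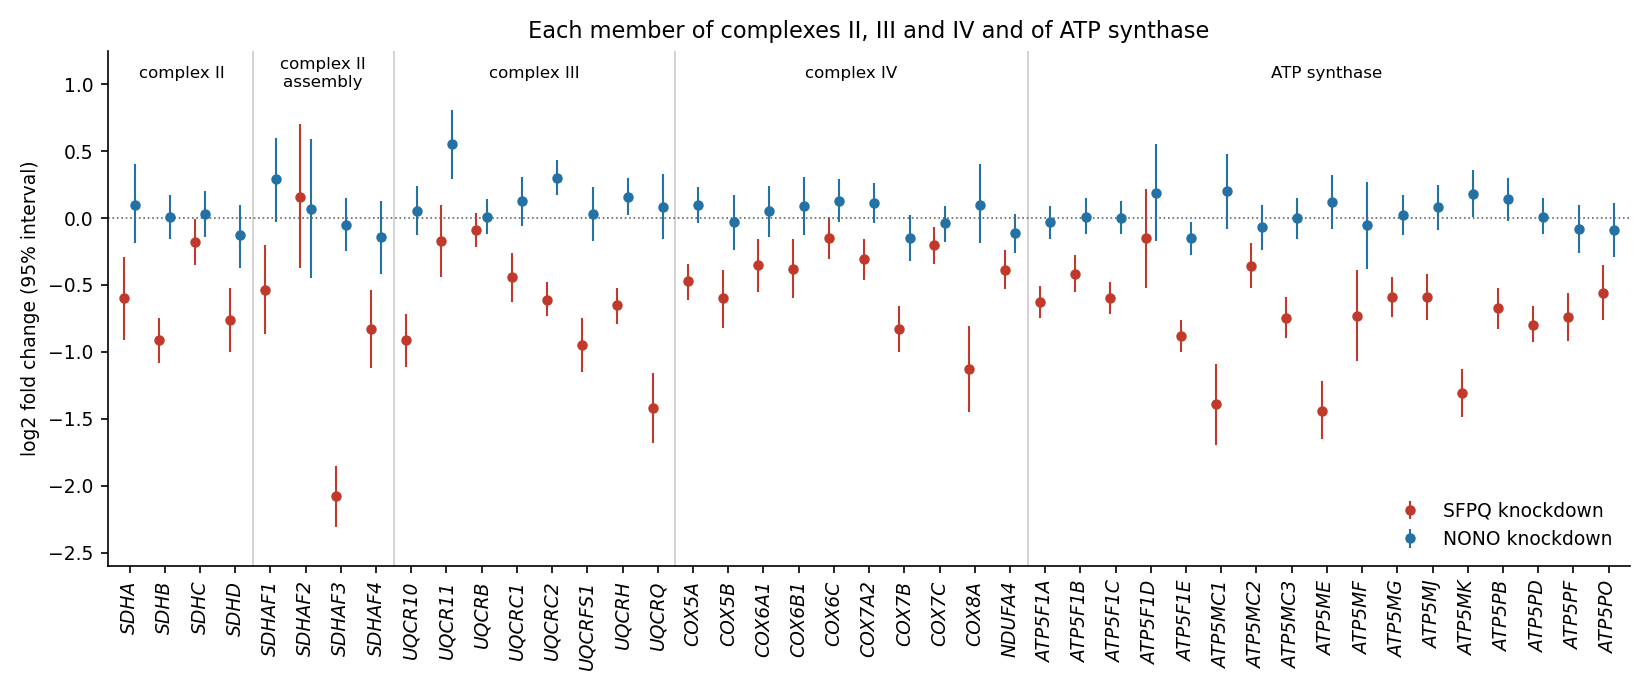
Log2 fold change with its 95% interval for each member of complexes II, III and IV and ATP synthase after SFPQ knockdown (red) and NONO knockdown (blue), which share the siCtrl libraries. Most red points lie below 0 with SDHAF3 lowest, at -2.08, while UQCR11 and UQCRC2 are the blue points called higher.

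Levels were also divided by the exon length of each gene. This length takes in all annotated exons, 421 bases for NDUFA1 and 19359 for NDUFA10, and is not that of 1 mRNA. The order of genes on this scale therefore depends on the annotation. In siCtrl the highest members were ATP5F1B with 336 CPM per kb, NDUFS5 with 259, NDUFA1 with 150 and UQCRH with 114. With siSFPQ-2 and siSFPQ-3 they stood at 277 and 228, 132 and 121, 93.4 and 85.7, and 72.3 and 72.7 CPM per kb. ATP5F1B thus stayed the highest member per annotated exon length in all 3 groups, which does not make it the most abundant mRNA. Members whose exons are shared with other genes are underestimated on this scale. Of the 21 members with at least 5% of their exon length shared on the same strand, 17 fell (median -0.56), and of the 67 others 54 fell (median -0.67). The pseudogene ATP5PBP1, a copy of ATP5PB with which it can share reads, had 72 reads in 24 libraries. Its log2 fold change was 1.96, which is given as a description because its 3 libraries at 1 CPM or more were all siSFPQ libraries (1.02, 1.07 and 1.47 CPM).

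Both siRNAs gave the same picture. With siSFPQ-2 alone 68 members fell and 4 rose (64.9% of all genes called, 32.4% in each direction), and with siSFPQ-3 alone 71 fell and 4 rose (67.0% of all genes called, 33.7% higher and 33.3% lower). Lower with both were 66 members, against 27.2% of all genes, and higher with both were 3, NDUFV2, NDUFA5 and NDUFAF5, against 28.6%. None was called in opposite directions. The median ratio of the members to siCtrl was -0.63 to -0.53 on the log2 scale in the siSFPQ-2 libraries, -0.76 to -0.62 in the siSFPQ-3 libraries and -0.06 to 0.03 in the siCtrl libraries themselves. Between the siRNAs, 9 members were called, 7 lower and 2 higher with siSFPQ-3 (14.7% of all genes called, 6.06% lower and 8.61% higher). NDUFAF3 was lower by 0.77 (SE 0.24), NDUFV1 by 0.70 (SE 0.11) and NDUFAF1 by 0.64 (SE 0.18), and ATP5MK was higher by 0.61 (SE 0.11). Leaving out siSFPQ-2 replicate 1 reduced this count to 5, and NDUFAF3 and NDUFAF1 were among the calls lost.

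Summed over the members, the nuclear transcripts of the chain took 6479, 6929 and 6984 CPM in the siCtrl libraries, 4624 to 5057 with siSFPQ-2 and 4330 to 4755 with siSFPQ-3. The 13 mitochondrially encoded mRNAs of the same complexes were summed in the same way. Their sum was 47510 to 56260 CPM in siCtrl, 55350 to 69530 with siSFPQ-2 and 59650 to 60700 with siSFPQ-3, so the siSFPQ-2 range overlapped the control. Of these 13, 5 rose, MT-ND4 by 0.47 (SE 0.09), MT-CYB by 0.40, MT-CO1 by 0.38, MT-ND4L by 0.38 and MT-ND5 by 0.30. That is 38.5% of them, near the 34.7% of all genes that were called higher. MT-ND6, the mRNA transcribed from the other mitochondrial strand, fell by 0.68 (SE 0.13), from 436, 401 and 394 CPM to between 180 and 319, and 7 were not called.

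**Figure D4:**
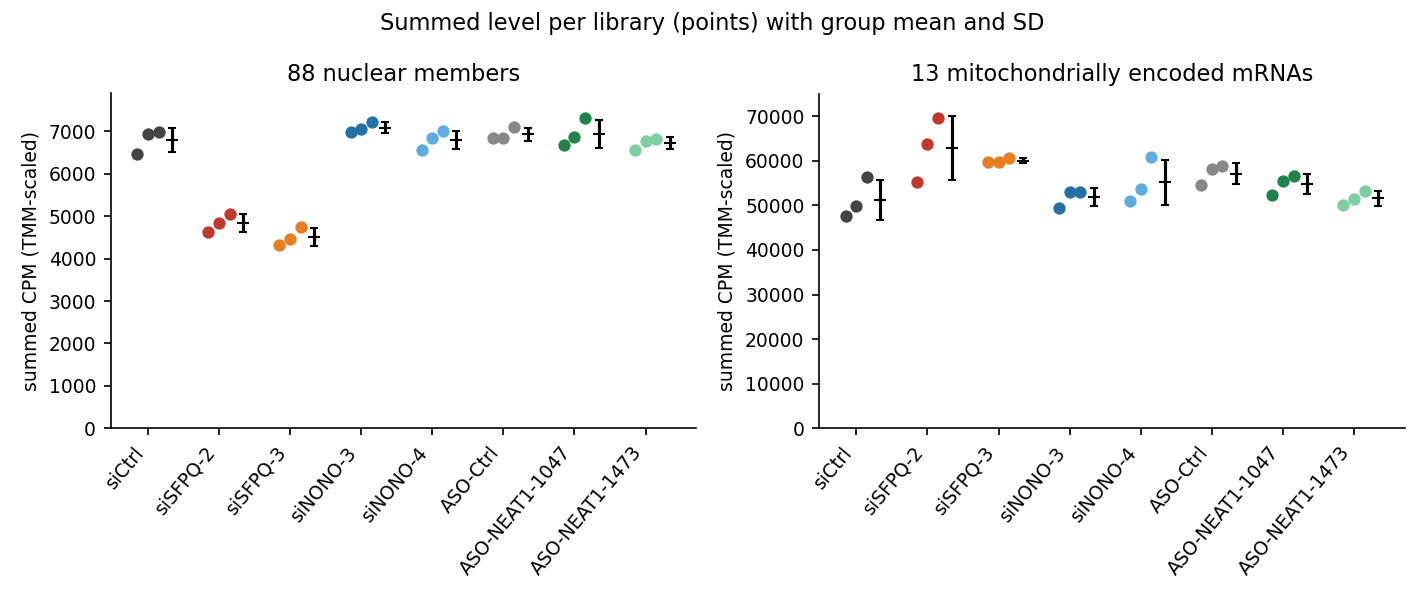
Summed CPM of the 88 nuclear members (left) and of the 13 mitochondrially encoded mRNAs (right) in each library (points, in order of value within a group), with mean and SD beside them. On the left the 6 siSFPQ libraries lie between 4330 and 5057, below all others, and on the right 5 of the 6 lie above the siCtrl range.

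Genes of the same complexes whose symbols fall outside the naming pattern were counted as well, beside the 34.7% higher and 35.8% lower among all genes. Of 11 further complex I assembly factors 9 fell and 0 rose (median -0.82), with NUBPL, which delivers iron-sulfur clusters, at -2.16 and TMEM126A at -1.16. Of 10 further complex III genes 7 fell and 0 rose (median -0.95), and CYC1, the cytochrome c1 subunit, went from 50.3, 47.1 and 49.2 CPM to between 13.5 and 20.5, a fall of 1.51 (log2 fold change -1.51, SE 0.09) with an adjusted p of 5.19e-14. Of 28 further complex IV genes 22 fell and 2 rose (median -0.50): cytochrome c itself, CYCS, fell by 1.47 and the subunit COX4I1 by 0.50, while COA8 and CMC2 rose by 0.46 and 0.31. Of 6 genes that assemble or regulate ATP synthase 3 fell, with TMEM70 at -0.52, and TMEM242 rose by 0.44. The median of these 6 was -0.11, against -0.67 for the ATP synthase subunits. In the citric acid cycle 12 of 17 fell (median -0.40) and SUCLA2 rose by 0.39. SUCLG2, a subunit of succinyl-CoA ligase, stood at 105, 98.6 and 78.0 CPM in siCtrl and between 5.06 and 8.06 after knockdown, and fell by 3.89 (SE 0.14).

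Regulators of these genes went both ways, 14 of 23 lower (60.9%, against 35.8% of all genes) and 4 higher (17.4%, against 34.7%). The transcription factors NRF1 and GABPA, whose motifs are counted above, were not called. NRF1 stood at 18.1, 21.2 and 20.6 CPM in siCtrl and 18.5 to 23.3 after knockdown (log2 fold change 0.12, adjusted p = 0.303), and GABPA had a log2 fold change of 0.14 (adjusted p = 0.151). GABPB1, the partner of GABPA, and YY1 fell by 0.35 (SE 0.10) and 0.44 (SE 0.07). PPARGC1B, a coactivator of mitochondrial genes, fell from 17.2, 17.0 and 14.1 CPM to between 2.58 and 5.24, by 2.28 (SE 0.14, adjusted p = 9.43e-14). MYC stood at 75.3, 85.7 and 87.3 CPM in siCtrl and between 25.3 and 45.7 after knockdown. By edgeR it was higher with siSFPQ-3 than with siSFPQ-2 by 0.55 (SE 0.14, adjusted p = 0.0058). Of the factors that act on mitochondrial DNA, TFB1M and POLRMT rose by 1.06 and 0.61. TFAM, which packages mitochondrial DNA, differed between the siRNAs: it stood at 238, 258 and 199 CPM in siCtrl, 118, 126 and 92.2 with siSFPQ-2 and 218, 225 and 198 with siSFPQ-3. The test of that difference gave 0.94 (SE 0.12, adjusted p = 1.97e-06). With siSFPQ-3 alone TFAM was not called (adjusted p = 0.361). Its part in the changes of the members was not tested.

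Members at both ends of gene length fell. The 6 members that span 60 kb or more, NDUFAF6, NDUFAF2, NDUFA10, NDUFS4, NDUFA12 and SDHAF3, all fell, with a median of -1.78, against -0.00 for 4094 other protein-coding genes of that span. Of the 35 members under 10 kb 31 fell, with a median of -0.79, against -0.25 for other genes of that span. Between 10 and 30 kb 25 of 32 fell (median -0.59, against -0.03 for other genes). Between 30 and 60 kb 9 of 14 fell (median -0.29, against 0.07). The shares of other protein-coding genes called lower were 43.9% under 10 kb and 36.8% between 10 and 30 kb. They were 32.5% between 30 and 60 kb and 39.2% from 60 kb. Over the 87 protein-coding members, span and log2 fold change had a Pearson correlation of -0.01 and a Spearman correlation of 0.15.

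**Figure D5:**
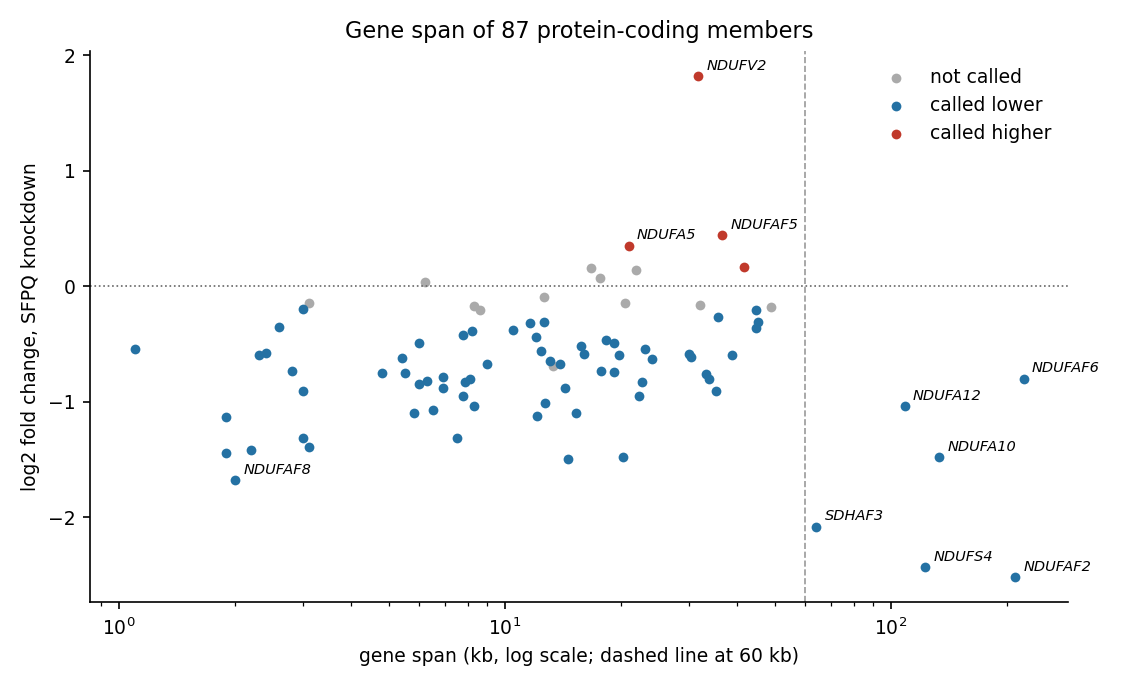
Log2 fold change after SFPQ knockdown against gene span in kb (log axis) for the 87 protein-coding members, coloured by call. The 6 members right of the dashed line at 60 kb lie between -2.52 and -0.80, and most shorter members also lie below 0.

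NONO knockdown left the members near the control. Of 88 members 4 rose and 1 fell (17.4% of all genes called, 7.47% higher and 9.96% lower), and the median log2 fold change was 0.08. UQCRC2, a core protein of complex III, stood at 139, 138 and 129 CPM in siCtrl, 157, 172 and 176 with siNONO-3 and 165, 161 and 169 with siNONO-4. Both siRNAs raised it in every library, by 0.30 in all (SE 0.06), with an adjusted p of 0.00116. NDUFB2, an accessory subunit of complex I, stood at 20.4, 22 and 21.3 CPM in siCtrl, 27.6, 28.0 and 27.2 with siNONO-3 and 29, 29.3 and 22.4 with siNONO-4. It rose by 0.36 (SE 0.10, adjusted p = 0.0108), and the call was lost without siCtrl replicate 1 (adjusted p = 0.0648). UQCRC2 and NDUFB2 were the members higher with both siRNAs (2.97% of all genes), and 0 were lower with both (3.09% of all genes). Every siNONO library lay above every siCtrl library in 7 members (7.98% of all genes) and below in 1 (7.69%). With siNONO-3 alone 9 members rose and 1 fell (19.9% of all genes called, 9.02% higher and 10.9% lower), and with siNONO-4 alone 2 rose and 0 fell (5.1% of all genes called higher and 5.94% lower).

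UQCR11 and NDUFB9 rose by 0.55 (SE 0.13) and 0.24 (SE 0.08) over both siRNAs, but neither was called with siNONO-4 alone (adjusted p = 0.0827 and 0.245). Over both siRNAs, UQCR11 was called in 16 of 16 alternatives and NDUFB9 in 8 of 16. NDUFA6, a LYR-motif subunit of complex I, stood at 57.5, 61.8 and 56.4 CPM in siCtrl, 39.3, 40.9 and 35.5 with siNONO-3 and 54.3, 55.7 and 48.5 with siNONO-4. It was clearly lower with siNONO-3 and near the control with siNONO-4. Over both it fell by 0.37 (SE 0.08), with an adjusted p of 0.00208, and the difference between the siRNAs was 0.46 (SE 0.10, adjusted p = 0.0028). With the replicate number as a block, 8 members were called after NONO knockdown, 6 higher and 2 lower, with NDUFS5 (0.25), NDUFAF8 (0.36) and ATP5F1E (-0.15) added. Leaving out siCtrl replicate 1 left 3.

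Some uncalled members are given here because their intervals were narrow. These intervals cover the spread between libraries, which may be technical. After NONO knockdown ATP5F1C, the gamma subunit of ATP synthase, stood at 163, 167 and 165 CPM with siNONO-3 and 161, 177 and 168 with siNONO-4, against 170, 171 and 159 in siCtrl. The groups overlapped, and the 95% interval ran from -0.12 to 0.13. The intervals of SDHB and UQCRB were -0.16 to 0.17 and -0.12 to 0.14. Between the siNONO siRNAs 5 members were called, 1 higher and 4 lower with siNONO-4 (10.0% of all genes called, 5.31% higher and 4.71% lower). Besides NDUFA6 these were NDUFS5, ATP5PF, NDUFAF6 and SDHC, lower by 0.35, 0.32, 0.32 and 0.30, and leaving out any 1 of the 6 siNONO libraries gave counts of 1 to 3. With the replicate block 10 were called, and with no filter on low counts 3. Of the genes outside the pattern, COX20, an assembly factor of complex IV, fell by 1.13 (SE 0.13), from 22.2, 19.5 and 20.9 CPM to 11.7, 14.0 and 14.5 with siNONO-3 and 5.6, 8.37 and 6.57 with siNONO-4. CYC1 rose by 0.31, LYRM7 fell by 0.40 and SUCLG2 by 0.55, and of the mitochondrially encoded mRNAs MT-ND3 and MT-ND2 rose by 0.39 and 0.26.

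The SFPQ and NONO groups were also compared with each other, without the control. In that test 78 members were lower after SFPQ than after NONO knockdown and 4 were higher (75.4% of all genes called, 38.4% lower and 37.0% higher), with a median difference of -0.68. The members that were higher were NDUFV2 (1.45, SE 0.18), NDUFA5 (0.38, SE 0.06), NDUFAF5 (0.25, SE 0.09) and ATP5PBP1, whose direction was fixed by the level rule. Without it 3 of 87 protein-coding members were higher. Members without a call included NDUFB4, NDUFB9, NDUFAF7, SDHAF2 and UQCRB.

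In the libraries labelled ASO-NEAT1, 0 of 88 members were called by edgeR, as were 0 genes in all (0.0% of all genes), and DESeq2 also called 0 members. At an unadjusted p under 0.05 there were 0 members and 353 genes. Every library labelled ASO-NEAT1 lay above every ASO-Ctrl library for 1 member, NDUFB8 (0.97% of all genes), and below for 1, ATP5F1C (0.813%). The median log2 fold change of the members was -0.01, and those of protein-coding members ran from -0.20 for SDHAF4 (95% interval -0.48 to 0.07) to 0.28 for ATP5F1D (95% interval -0.07 to 0.63). NDUFS4, the second most lowered member after SFPQ knockdown, stood at 36.1, 41.3 and 43.3 CPM in ASO-Ctrl, 36.4, 33.9 and 38.2 in ASO-NEAT1-1047 and 38.0, 37.1 and 43.9 in ASO-NEAT1-1473. As no fall of NEAT1 RNA was called, these values do not show what its loss would do to the members. Between the controls ASO-Ctrl and siCtrl, 0 members and 72 genes (0.454% of all genes) were called by edgeR, with 1 member at an unadjusted p under 0.05.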

How the data were processed

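Raw read counts per Ensembl gene were deposited by the authors, made with featureCounts 2.0.3 per the file headers; the submitters' processing notes name cutadapt 4.2, STAR 2.7.5a, DESeq2 1.38.1 and hg38. In these counts, 1146 genes wholly covered by same-strand exons had 0 reads, while 498 of 771 covered only on the opposite strand had reads, so counting used the strand and left out shared exons. Total counts were 4243196 to 14886353 per library. Symbols came from a gene table (60463 matched), biotypes from GENCODE and promoters from RefSeq.

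Fold changes used edgeR 4.0.16 in R 4.3.3 (TMM, expression filter by group, robust quasi-likelihood fit over all 24 libraries, mean of a target's 2 reagents minus the control of its arm), tested on simulated data. CPM use TMM factors. Alternatives were DESeq2 1.42.0, RLE and upper quartile factors, no filter, 10 CPM, only the groups compared, no mitochondrial genes, a replicate block, and each library left out. Same-numbered libraries deviated together (r 0.114 to 0.329 for NONO, 0.131 to 0.428 for the ASO arm), so those numbers pair libraries, and block values stand beside results they change. Members and lists were chosen with earlier results of these data known. Values by library are given for targeted genes, for up to 2 rises and 2 falls per complex called with both reagents, for paralogs and for uncalled members with narrow intervals. MT-CYB, MT-CO1, MT-ND4L, MT-ND5, TFAM, NRF1, GABPA, GABPB1, YY1, MYC and COX4I1 were also named after their values were seen. Some items are not reported here.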

Additional observations from a re-analysis of the deposited data

Results flagged for a closer look

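Differences between the siRNAs to 1 target were tested directly, by edgeR's quasi-likelihood test with Benjamini-Hochberg adjustment, and the members with the largest called differences are listed here. With siSFPQ-3 against siSFPQ-2, the log2 difference was 0.61 for ATP5MK and 0.28 for ATP5MC3, both higher with siSFPQ-3. It was -0.77 for NDUFAF3, -0.7 for NDUFV1 and -0.64 for NDUFAF1. All 5 lay on the same side of siCtrl with both siRNAs. With siNONO-4 against siNONO-3, the log2 difference was 0.46 for NDUFA6, -0.35 for NDUFS5, -0.32 for ATP5PF and -0.32 for NDUFAF6. What causes the differences between reagents was not tested.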

How the results depend on the processing

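No result reversed. After SFPQ knockdown 73 to 77 members were called when 1 library was left out. DESeq2, other scaling factors and the other refits called 75 to 78, and 58 of 67 members under 5% same-strand overlap were called (added after the data were seen). After NONO knockdown leaving out 1 library gave 3 to 5, for siSFPQ-3 against siSFPQ-2 it gave 5 to 9 and for siNONO-4 against siNONO-3 1 to 3. With no filter on low counts the last comparison gave 3. Single values were followed for the members selected in each comparison for the largest called changes or the narrowest intervals. Of their alternative values 934 kept their call, 35 lost it and 11 gained it. These counts do not cover the other members.

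The replicate block gave 8 members after NONO knockdown, against 5 without it, and 10 between the siNONO siRNAs, against 5. It gave 13 between the siSFPQ siRNAs, against 9, with NDUFAF8, COX6B1, COX6C and ATP5PD added. Same-numbered libraries of these siRNAs had r of 0.032, 0.073 and 0.267, and a crossed pair had 0.113. The added calls therefore rest on an uneven pairing. After SFPQ knockdown the block gave 77. There, same-numbered libraries deviated together for siCtrl and siSFPQ-2 (r 0.147 to 0.278). With siSFPQ-3 they did not in every pair (r from 0.011 with siCtrl and from -0.04 with siNONO-3). Low counts limit NDUFA13, NDUFA11, NDUFB7, SDHAF2, NDUFV2 and ATP5PBP1.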
